A study of Mus musculus with 13 samples.

Results

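Collagen chains are the alpha chain subunits of the collagens. All 42 genes with a collagen symbol (Col, a type number, the letter a and a chain number) that were measured by a probe set naming that gene alone were taken, out of 18820 genes on the arrays. They were read from 46 probe sets, and where a gene had more than 1, the probe set with the highest mean was used. Col7a1 and Col9a3 share their probe sets with another gene and were left out. All 42 genes matched a RefSeq entry by Entrez identifier.

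The study measured RNA of epididymal white adipose tissue, the abdominal fat pad beside the epididymis, on 13 Affymetrix arrays hybridised with labelled cDNA from 100 ng of total RNA. The male mice were 18 weeks old at the end of 12 weeks on low-fat chow with 13% of energy as fat or on a high-fat diet with 60%. Wild-type mice were C57BL/6, and P2X7 knockout mice were B6.129P2-P2rx7tm1Gab/J, which carry a targeted allele of P2rx7, the gene of an ATP-gated ion channel of immune and other cells, backcrossed to B6 for 7 generations. The groups were wild type on chow, wild type on high-fat diet and knockout on chow, with 3 arrays each, and knockout on high-fat diet with 4. The labels do not state that the wild-type and knockout mice were littermates or that 1 animal was used per array. The p-values below therefore rest on the spread between samples, part of which may be technical.

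A collagen molecule is a helix of alpha chains that is hydroxylated, glycosylated and folded in the endoplasmic reticulum, trimmed by proteases outside the cell and cross-linked. Fibrillar collagens form the interstitial fibres, type IV collagens the sheet of basement membrane that surrounds each adipocyte, and type VI collagens a beaded filament network that is abundant in fat. Adipose tissue enlarges on a high-fat diet, and its matrix, made largely by stromal fibroblasts and partly by adipocytes and vascular cells, is known to be remodelled with it.

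The sequence in front of a gene's start is shown for 4 chains that rose with high-fat diet in both genotypes and stand for 3 kinds of collagen: Col1a2 and Col3a1 of the interstitial fibres, Col6a3 of the type VI filaments and Col8a1 of the short-chain network. Each is the 250 bases before the RefSeq start in GRCm38.p6, written 5′ to 3′ on the gene's strand. Capitals mark matches, on either strand, to 3 sets of letters: CCAAT for the box of that name, TATAAA for the TATA box and GGGCGG for the GC box. Col1a2 lies at chr6:4505368-4505617 on the plus strand, Col3a1 at chr1:45311288-45311537 on the plus strand, Col6a3 at chr1:90843972-90844221 on the minus strand and Col8a1 at chr16:57754738-57754987 on the minus strand.
Col1a2: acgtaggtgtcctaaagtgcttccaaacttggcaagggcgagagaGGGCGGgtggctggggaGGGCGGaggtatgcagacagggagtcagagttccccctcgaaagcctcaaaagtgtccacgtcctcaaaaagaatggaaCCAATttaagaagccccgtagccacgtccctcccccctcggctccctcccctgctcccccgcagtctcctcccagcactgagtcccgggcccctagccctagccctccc
Col3a1: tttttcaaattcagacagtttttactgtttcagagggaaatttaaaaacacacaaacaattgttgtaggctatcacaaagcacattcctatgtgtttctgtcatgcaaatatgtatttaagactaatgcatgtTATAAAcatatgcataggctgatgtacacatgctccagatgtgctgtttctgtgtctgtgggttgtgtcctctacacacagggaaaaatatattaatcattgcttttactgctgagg
Col6a3: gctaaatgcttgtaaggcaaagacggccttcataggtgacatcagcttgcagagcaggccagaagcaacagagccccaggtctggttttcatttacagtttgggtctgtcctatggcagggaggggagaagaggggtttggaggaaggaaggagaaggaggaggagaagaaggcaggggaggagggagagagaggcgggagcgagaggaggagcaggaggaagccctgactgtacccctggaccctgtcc
Col8a1: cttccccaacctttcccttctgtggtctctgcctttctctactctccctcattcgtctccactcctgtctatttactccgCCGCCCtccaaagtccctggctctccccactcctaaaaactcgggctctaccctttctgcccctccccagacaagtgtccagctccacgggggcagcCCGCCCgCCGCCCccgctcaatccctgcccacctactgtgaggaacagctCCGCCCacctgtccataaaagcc

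The windows differ in base composition and in the letters found. GC content was 62.0% for Col1a2, 35.2% for Col3a1, 57.2% for Col6a3 and 60.8% for Col8a1. The Col1a2 window holds 1 CCAAT match, 109 bases before the start, and 2 GGGCGG matches. The Col3a1 window holds 1 TATAAA match, 117 bases before the start, and the Col8a1 window holds 4 GGGCGG matches. None of these letters occur in the Col6a3 window. RefSeq promoters were found for 34 of the 42 members (37 windows), and Col1a1, Col2a1, Col4a3, Col5a2, Col12a1, Col14a1, Col22a1 and Col26a1 had no entry. GGGCGG was present in 21 of the 37 collagen windows (56.8%) and in 32.7% of all 32851 windows. CCAAT was present in 12 (32.4%, against 33.8% of all windows) and TATAAA in 5 (13.5%, against 12.4%). A match describes the letters and is not a binding site. The Col4a1 and Col4a2 genes start back to back on opposite strands. Their whole promoter entries, 300 bases each and running past the start, share 78 bases. How many bases the windows before the start share was not tested.

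The deposited values are on a log2 scale after RMA, the authors' normalisation, so a difference of 1 is a doubling. Array medians ran from 5.72 to 5.88, and the correlation between arrays of a group from 0.993 to 0.997. A probe set's level depends on its probes, so levels are compared between arrays and not between genes. The median gene had a mean of 6.66. Of the chains, 19 lay above it and 23 at or below it, where differences are compressed towards the array's background. P2rx7 itself measured 7.91 to 8.41 in wild type and 7.90 to 8.23 in knockout on chow, and 9.36 to 9.69 and 8.90 to 9.14 on high-fat diet. Its genotype difference missed the threshold on either diet (limma adjusted p = 0.741 and 0.464). No source used here places this probe set with respect to the targeted sequence, so P2rx7 does not check the genotype labels, and "knockout" below means the arrays labelled so.

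Markers of several cell types moved with diet in the same arrays. Beside the counts that follow, 17.7% of all genes rose and 18.1% fell in wild type, and 14.5% rose and 19.7% fell in knockout. All 10 macrophage markers rose in both genotypes, with a mean list level of 8.41 to 9.07 over the chow arrays and 10.54 to 10.98 over the high-fat arrays. Of 9 adipocyte markers, 8 fell in wild type and 7 in knockout, while Lep rose in both (by 0.37 and 0.29). Their mean level was 12.10 to 12.26 on chow and 11.24 to 11.73 on high-fat diet, on a scale where all values ran from 1.70 to 13.86. Of 10 fibroblast and progenitor markers, 4 rose and 2 fell in wild type (Pdgfrb, Thy1, Icam1 and Fap rose, Dpp4 and Cd34 fell). In knockout 4 rose and 1 fell, and the fallen counts are near or below the shares of all genes. The fibroblast list level was 8.74 to 9.22 in wild type on chow, 9.09 to 9.42 in wild type on high-fat diet, 9.02 to 9.10 in knockout on chow and 9.19 to 9.28 in knockout on high-fat diet.

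All 6 mesothelial markers fell in both genotypes, from 8.81 to 9.61 on chow down to 7.40 to 8.63 on high-fat diet. Endothelial markers fell in 5 of 7 cases in wild type and 2 in knockout, and smooth muscle and pericyte markers likewise in 5 and 2 of 7. Over all genes 18.1% fell in wild type and 19.7% in knockout, so the knockout counts of 2 are near the background. No endothelial or smooth muscle and pericyte marker passed for the difference of diet effects between genotypes (smallest limma adjusted p = 0.479 and 0.399). Unequal counts here and in the other marker lists thus do not show a genotype difference. Of 9 liver transcripts, 6 fell in wild type and none passed in knockout. Their mean level was 7.19 to 8.25 in wild type on chow, 5.57 to 7.31 in wild type on high-fat diet, 5.81 to 5.96 in knockout on chow and 5.22 to 6.37 in knockout on high-fat diet. Of 3 Schwann cell markers, 1 fell in wild type (Cdh19, by 0.59) and none passed in knockout. Of 5 epididymal markers, none passed in wild type and 1 fell in knockout, at a mean list level of 3.33 to 3.86. Among these, Adam7 measured 4.90 in knockout chow array 1 and 3.23 and 3.14 in arrays 2 and 3. In whole tissue, fewer cells of a type and less RNA per cell cannot be told apart, and the part of these cell types in the collagen values was not tested.

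High-fat diet raised more collagen chains than it lowered. In wild type 15 of 42 chains rose and 4 fell (limma, p adjusted by Benjamini-Hochberg across the 18820 genes, threshold 0.05), which is 35.7% risen, against 17.7% of all genes, and 9.52% fallen, against 18.1%. In knockout 10 rose and 4 fell, which is 23.8% risen, against 14.5% of all genes, and 9.52% fallen, against 19.7%. Changes of at least 1.5-fold were nearly all upward: 9 chains rose and 1 fell by that much in wild type, against 8.76% and 7.33% of all genes, and 8 rose and none fell in knockout, against 7.09% and 6.05%. The median change over the 42 chains was 0.06 in wild type and 0.00 in knockout, beside −0.03 and −0.06 over all genes. The risen chains are a minority, and 9 of the 15 in wild type and 8 of the 10 in knockout rose by at least 1.5-fold.

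Calls were more frequent among bright genes in general. Of the 19 chains above the median gene, 14 rose and 1 fell in wild type, where 26.3% and 26.2% of all such genes did, and 9 rose and 2 fell in knockout, where 21.3% and 27.9% did. Their median changes were 0.51 and 0.32. Of the 23 other chains, 1 rose and 3 fell in wild type, against 9.1% and 10% of all genes at or below the median, and 1 rose and 2 fell in knockout, against 7.64% and 11.5%. Their medians were −0.08 and −0.05. The high-fat arrays lay wholly above the chow arrays for 15 chains in wild type (35.7%, against 20.8% of all genes) and for 14 in knockout (33.3%, against 17.5%). They lay wholly below for 4 chains in wild type (9.52%, against 22.5%) and 6 in knockout (14.3%, against 25.6%).

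**Figure D1:**
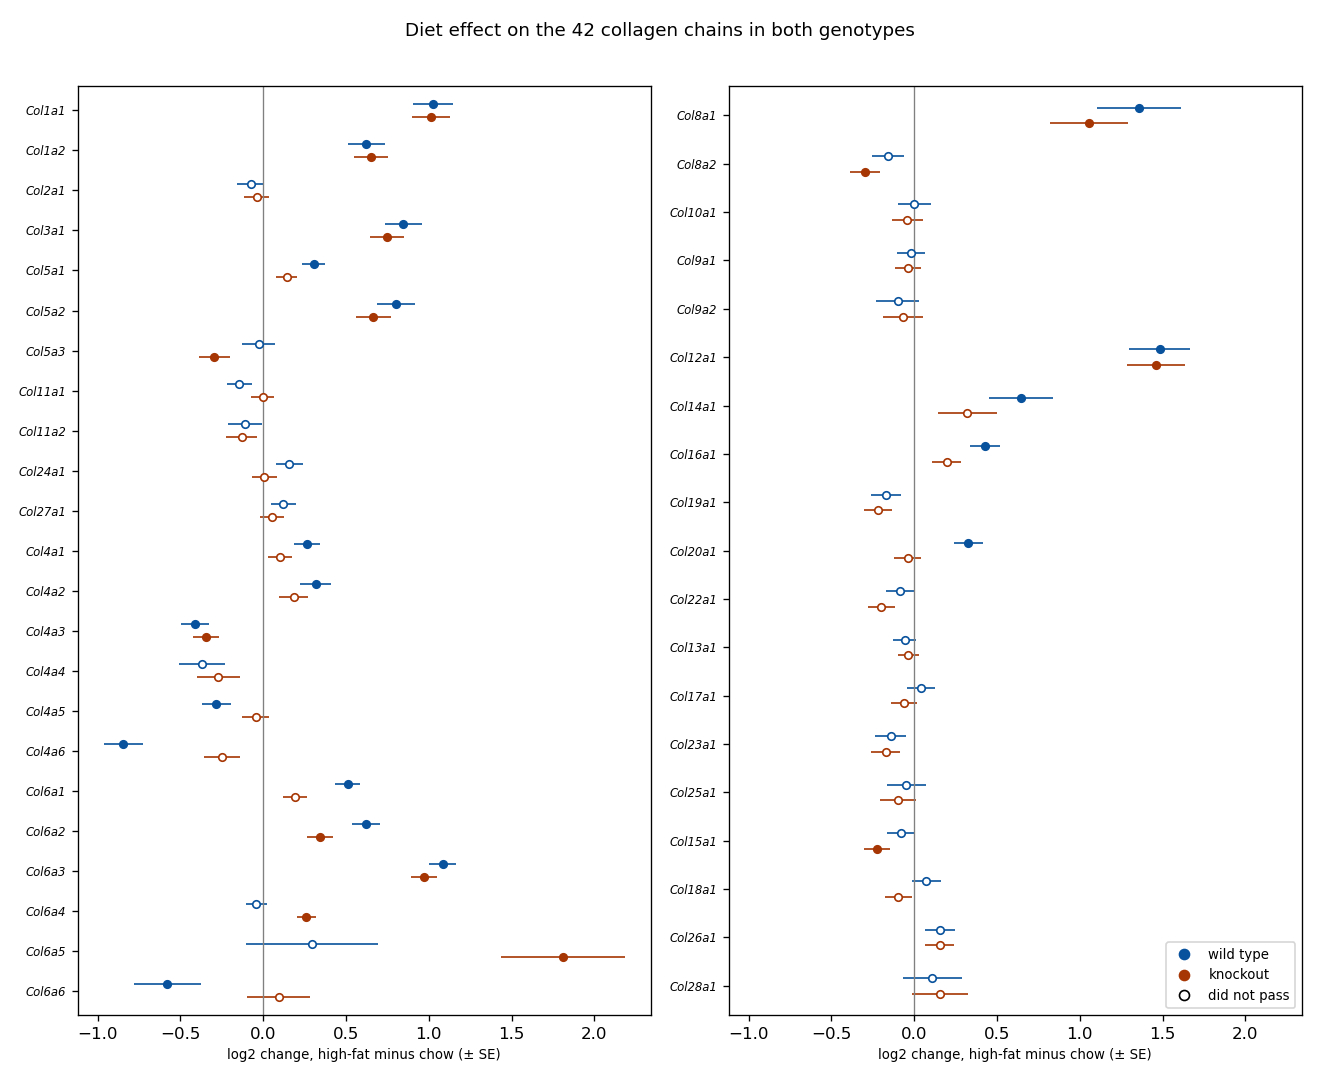
Change with high-fat diet (log2, high-fat minus chow) of each of the 42 collagen chains in wild type and knockout, ordered by structural class. Points give the change and bars ± 1 SE of the limma fit, filled where it passed the test and open where it did not. Col12a1, Col8a1, Col6a3 and Col1a1 lie far to the right in both genotypes and Col6a5 in knockout, while most transmembrane and cartilage chains sit near 0.

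Chains called in both genotypes were Col1a1, Col1a2, Col3a1, Col5a2, Col6a2, Col6a3, Col8a1 and Col12a1, which rose, and Col4a3, which fell. Another 10 passed in wild type alone (Col4a1, Col4a2, Col5a1, Col6a1, Col14a1, Col16a1 and Col20a1 risen, Col4a5, Col4a6 and Col6a6 fallen) and 5 in knockout alone (Col6a4 and Col6a5 risen, Col5a3, Col8a2 and Col15a1 fallen). These lists do not show a difference between genotypes, because no chain passed the test of that difference given further on. The other 18 chains passed in neither. The 8 chains risen in both genotypes passed in every alternative fit that was run, with each array left out in turn among them.

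Among the 11 fibrillar chains, the chains of the main interstitial fibres rose together. In wild type 5 rose and none fell, where 17.7% and 18.1% of all genes did. In knockout 4 rose and 1 fell, where 14.5% and 19.7% did. Col1a1, the major chain of type I collagen, measured 10.03, 9.45 and 9.73 in wild type on chow, 10.98, 10.68 and 10.63 in wild type on high-fat diet, 9.74, 9.83 and 9.61 in knockout on chow and 10.73, 10.72, 10.74 and 10.76 in knockout on high-fat diet. Every high-fat array lay above every chow array. The change was 1.03 ± 0.12 (SE, 2.04-fold, limma adjusted p = 2.02e-05) in wild type and 1.01 ± 0.11 (2.02-fold, adjusted p = 1.58e-05) in knockout.

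Col1a2, its partner chain in type I collagen, measured 10.34, 9.82 and 10.05 in wild type on chow, 10.90, 10.55 and 10.62 on high-fat diet, 9.97, 9.97 and 10.002 in knockout on chow and 10.59, 10.65, 10.60 and 10.69 on high-fat diet. It too separated the diets without overlap, at a smaller size: 0.62 ± 0.11 (1.54-fold, limma adjusted p = 0.000583) and 0.65 ± 0.10 (1.57-fold, adjusted p = 0.000286).

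Col3a1, the only chain of type III collagen, which is assembled with type I in soft tissue, measured 9.92, 9.69 and 9.74 in wild type on chow and 10.93, 10.43 and 10.53 on high-fat diet. In knockout it measured 9.70, 9.82 and 9.59 on chow and 10.42, 10.42, 10.43 and 10.52 on high-fat diet. The diets did not overlap, and the change was 0.85 ± 0.11 (1.80-fold) in wild type and 0.75 ± 0.10 (1.68-fold) in knockout, with limma adjusted p of 4.29e-05 and 8.75e-05.

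Type V collagen is a minor component that sits inside type I fibrils and limits their diameter. Col5a2 measured 7.45, 7.55 and 7.65 in wild type on chow, 8.62, 8.08 and 8.35 on high-fat diet, 7.60, 7.67 and 7.59 in knockout on chow and 8.25, 8.21, 8.25 and 8.44 on high-fat diet. It rose by 0.80 ± 0.11 (1.74-fold, limma adjusted p = 9.07e-05) in wild type and 0.66 ± 0.11 (1.59-fold, adjusted p = 0.000288) in knockout, with no overlap of the diets.

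Its partner Col5a1 measured 7.16, 7.11 and 7.13 in wild type on chow, 7.55, 7.35 and 7.41 on high-fat diet, 7.22, 7.26 and 7.26 in knockout on chow and 7.42, 7.41, 7.39 and 7.33 on high-fat diet. The diets did not overlap in either genotype, but the change was small: 0.30 ± 0.07 (limma adjusted p = 0.00304) in wild type and 0.14 ± 0.06 (adjusted p = 0.105) in knockout. A second, dimmer Col5a1 probe set with a mean of 5.56 showed no such difference (−0.03 and −0.06), and the wild-type call was lost when both were averaged. Col5a3, the remaining type V chain, ranged from 7.29 to 7.63 in wild type on chow, 7.35 to 7.42 on high-fat diet, 7.53 to 7.66 in knockout on chow and 7.16 to 7.49 on high-fat diet. It fell by 0.29 in knockout (limma adjusted p = 0.0276) and changed by −0.03 in wild type (adjusted p = 0.870). The knockout call was lost when knockout chow array 2 or 3 or knockout high-fat array 2, 3 or 4 was left out. It was also lost with the replicate number as a block.

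The remaining fibrillar chains did not pass the test. Col2a1, Col11a1 and Col11a2, chains of cartilage collagens, and Col24a1 and Col27a1, the minor fibrillar chains, lay between 4.42 and 6.04 over all arrays, below the median gene. Their changes ran from −0.14 to 0.16 in wild type and from −0.13 to 0.05 in knockout.

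**Figure D2:**
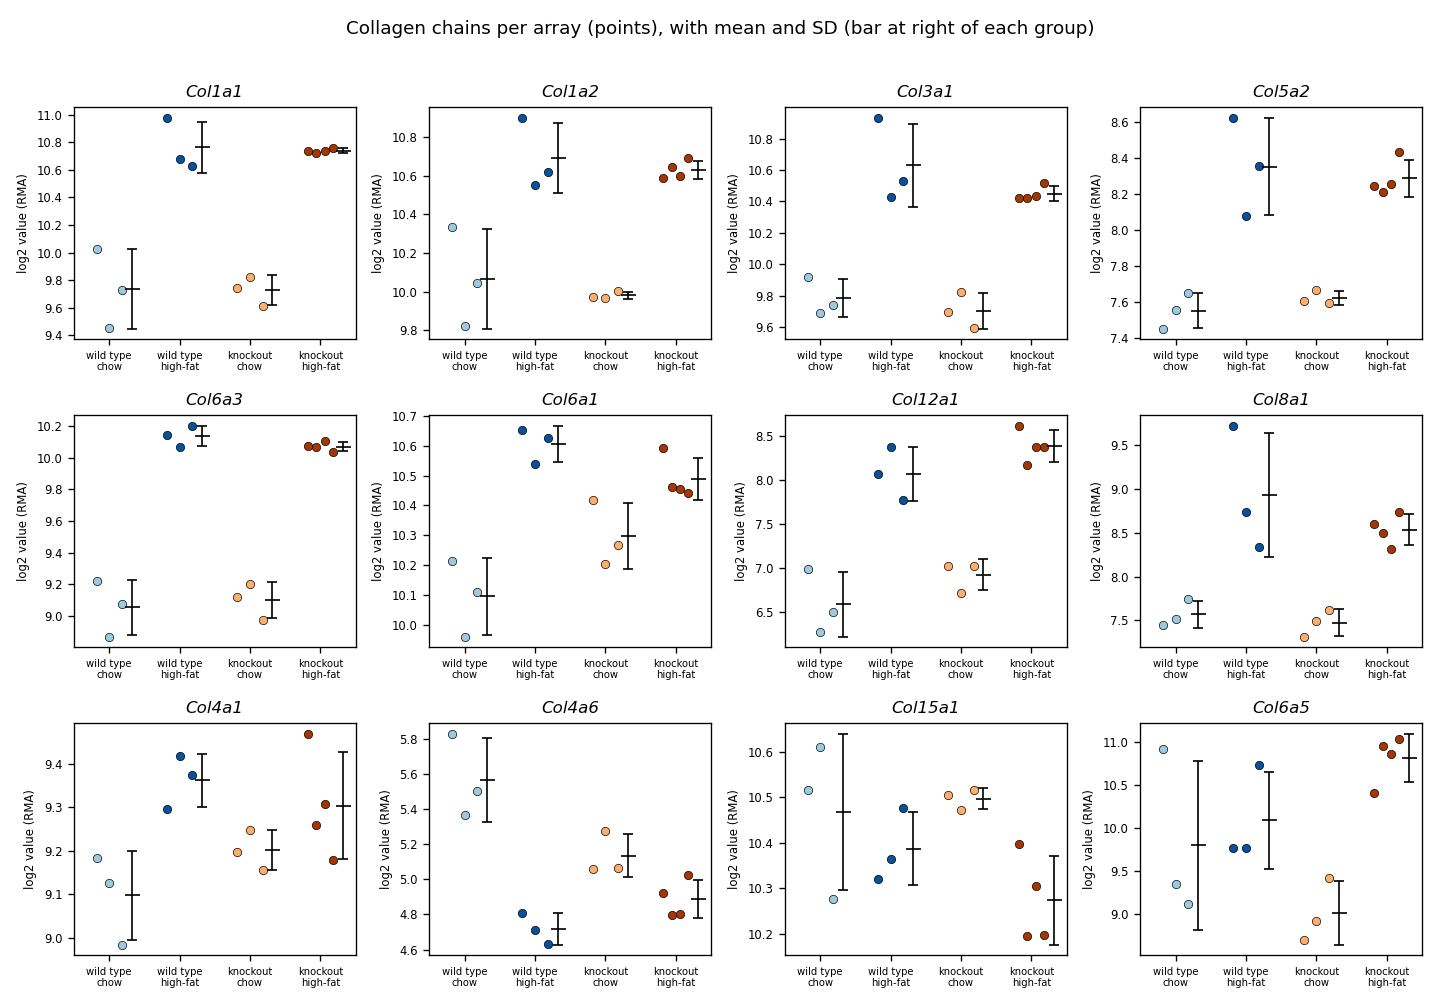
Log2 expression (RMA) of named collagen chains in each array, by group, with points for arrays and bars for the mean ± SD. Each panel has its own vertical scale, and the 3 or 4 points of each high-fat group lie above the chow points of the same genotype for Col1a1, Col3a1, Col6a3, Col12a1 and Col8a1, while for Col6a5 the first wild-type chow array lies at 10.92 among the high-fat arrays.

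Type VI collagen is assembled from the chains of Col6a1 and Col6a2 with either Col6a3 or, in its place, Col6a4, Col6a5 or Col6a6, and the C-terminal fragment cleaved from the Col6a3 chain is endotrophin. Of these 6 genes, 3 rose and 1 fell in wild type, where 17.7% and 18.1% of all genes did. In knockout 4 rose and none fell, where 14.5% and 19.7% did. Col6a3 had the smallest p of all collagen chains. It measured 9.22, 8.87 and 9.08 in wild type on chow, 10.14, 10.07 and 10.20 on high-fat diet, 9.12, 9.20 and 8.97 in knockout on chow and 10.07, 10.07, 10.10 and 10.04 on high-fat diet. No high-fat array came near a chow array, and the change was 1.08 ± 0.08 (2.12-fold, limma adjusted p = 4.60e-07) in wild type and 0.97 ± 0.08 (1.96-fold, adjusted p = 9.18e-07) in knockout.

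Col6a1 measured 10.22, 9.96 and 10.11 in wild type on chow, 10.65, 10.54 and 10.63 on high-fat diet, 10.42, 10.20 and 10.27 in knockout on chow and 10.59, 10.46, 10.46 and 10.44 on high-fat diet. The knockout chow arrays lay between the wild-type chow and high-fat arrays, overlapping the former. The chain rose by 0.51 ± 0.08 in wild type (1.42-fold, limma adjusted p = 0.000131), and in knockout its 0.19 ± 0.07 just missed the threshold (adjusted p = 0.0525) and passed it in 9 of 23 fits.

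Col6a2 measured 10.06, 9.73 and 9.83 in wild type on chow, 10.53, 10.43 and 10.52 on high-fat diet, 10.19, 10.05 and 10.11 in knockout on chow and 10.60, 10.43, 10.44 and 10.36 on high-fat diet. It rose by 0.62 ± 0.08 (1.54-fold, limma adjusted p = 5.99e-05) in wild type and by 0.34 ± 0.08 (1.27-fold, adjusted p = 0.00407) in knockout, with no overlap of the diets.

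Col6a5, which encodes an alternative partner chain, had the largest change of any collagen chain in knockout and the widest spread in wild type. It measured 10.92, 9.35 and 9.12 in wild type on chow, 9.76, 9.76 and 10.74 on high-fat diet, 8.70, 8.91 and 9.42 in knockout on chow and 10.41, 10.95, 10.87 and 11.04 on high-fat diet. The diets separated in knockout and overlapped in wild type, where the first chow array was the highest of all 6. The change was 1.81 ± 0.37 (3.51-fold, limma adjusted p = 0.00198) in knockout and 0.29 ± 0.40 (adjusted p = 0.625) in wild type. Without wild-type chow array 1 the wild-type change was 0.86 and passed (adjusted p = 0.0398). A second Col6a5 probe set gave 1.79 in knockout and 0.19 in wild type, and was also highest in wild-type chow array 1 (9.65) among the wild-type arrays.

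The neighbouring gene Col6a6 was likewise highest in that array. It measured 8.25, 7.55 and 7.60 in wild type on chow, 6.76, 7.31 and 7.59 on high-fat diet, 7.22, 7.30 and 7.42 in knockout on chow and 7.20, 7.42, 7.50 and 7.49 on high-fat diet. It fell by 0.58 in wild type (limma adjusted p = 0.0388) with overlapping diets, and changed by 0.09 in knockout (adjusted p = 0.746). The wild-type call did not pass without wild-type chow array 1 (−0.36), wild-type high-fat array 1 (−0.35), knockout chow array 2, or knockout high-fat array 3 or 4. Nor did it pass with array weights, the liver covariate, the replicate number as a block or only the wild-type arrays in the fit. Col6a4 stayed between 4.15 and 4.49, near the low end of the arrays. It rose by 0.26 in knockout (limma adjusted p = 0.00367) and changed by −0.04 in wild type (adjusted p = 0.664).

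Fibril-associated collagens bind the surface of fibrils and link them to other matrix. Of 8 chains, 4 rose in wild type and 1 in knockout, and none fell. Over all genes 17.7% rose and 18.1% fell in wild type, and 14.5% rose and 19.7% fell in knockout. The risen count in knockout is thus near the background. Col12a1, the type XII chain of dense connective tissue, measured 6.99, 6.27 and 6.50 in wild type on chow, 8.06, 8.37 and 7.77 on high-fat diet, 7.02, 6.72 and 7.02 in knockout on chow and 8.61, 8.16, 8.37 and 8.37 on high-fat diet. It separated the diets fully, and its 1.48 ± 0.19 (2.79-fold, limma adjusted p = 3.15e-05) was the largest change of a chain in wild type. In knockout it was 1.46 ± 0.17 (2.75-fold, adjusted p = 2.57e-05).

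Col14a1, a related chain, measured 8.83, 8.71 and 9.46 in wild type on chow, 9.98, 9.64 and 9.30 on high-fat diet, 9.55, 9.37 and 9.24 in knockout on chow and 9.71, 9.50, 9.73 and 9.89 on high-fat diet. The diets overlapped in both genotypes. The change was 0.64 ± 0.19 in wild type (1.56-fold, limma adjusted p = 0.0176) and 0.32 ± 0.18 in knockout (adjusted p = 0.194). The wild-type call was lost without wild-type chow array 1 (0.56), wild-type chow array 2 (0.50) or wild-type high-fat array 1 (0.47), with the liver covariate or with only the wild-type arrays in the fit.

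Col16a1 rose by 0.43 in wild type (limma adjusted p = 0.00229), from 5.33 to 5.53 on chow up to 5.78 to 5.97 on high-fat diet, and changed by 0.20 in knockout (adjusted p = 0.0989). Col20a1 rose by 0.33 in wild type (adjusted p = 0.00893), from 6.48 to 6.64 up to 6.80 to 6.96, and changed by −0.04 in knockout (adjusted p = 0.748). A second Col20a1 probe set gave −0.14 in wild type, and the call was lost when both were averaged and with the liver covariate (adjusted p = 0.0508). Col9a1, Col9a2, Col19a1 and Col22a1 did not pass in either genotype, with changes between −0.22 and −0.02.

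Short-chain collagens form hexagonal networks. Col8a1, a type VIII chain made by vascular and other mesenchymal cells, measured 7.45, 7.51 and 7.75 in wild type on chow, 9.71, 8.73 and 8.34 on high-fat diet, 7.32, 7.50 and 7.62 in knockout on chow and 8.60, 8.50, 8.31 and 8.73 on high-fat diet. Wild-type high-fat array 1 was the highest, and the diets did not overlap. The change was 1.36 ± 0.25 (2.56-fold, limma adjusted p = 0.000796) in wild type and 1.06 ± 0.24 (2.08-fold, adjusted p = 0.00336) in knockout. Col8a2, the other type VIII chain, did not rise. It lay between 4.84 and 5.30, changed by −0.16 in wild type (adjusted p = 0.251) and fell by 0.30 in knockout (adjusted p = 0.0243), a call that was lost when any 1 of the 3 knockout chow arrays, or knockout high-fat array 2 or 3, was left out. Col10a1, the chain of cartilage growth zones, changed by 0.00 and −0.04.

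Of the 6 type IV chains of the basement membrane, 2 rose and 3 fell in wild type, where 17.7% and 18.1% of all genes did, and in knockout none rose and 1 fell, where 14.5% and 19.7% did. The counts are too small to set against those shares. Col4a1, a chain of the most widespread type IV trimer, measured 9.18, 9.13 and 8.98 in wild type on chow, 9.30, 9.42 and 9.37 on high-fat diet, 9.20, 9.25 and 9.16 in knockout on chow and 9.47, 9.26, 9.31 and 9.18 on high-fat diet. It rose by 0.26 ± 0.08 in wild type (1.20-fold, limma adjusted p = 0.0160) and changed by 0.10 ± 0.07 in knockout (adjusted p = 0.312), where the diets overlapped.

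Col4a2, its partner, measured 9.22, 9.17 and 9.06 in wild type on chow, 9.37, 9.57 and 9.45 on high-fat diet, 9.26, 9.35 and 9.29 in knockout on chow and 9.72, 9.37, 9.51 and 9.33 on high-fat diet. It rose by 0.32 ± 0.09 in wild type (1.25-fold, limma adjusted p = 0.0162) and changed by 0.18 ± 0.09 in knockout (adjusted p = 0.126). Both wild-type calls were lost when arrays were centred on their medians or wild-type chow array 3 was left out, and that of Col4a2 also without wild-type high-fat array 2.

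Col4a3, Col4a4, Col4a5 and Col4a6, known best from kidney, lung and skin basement membranes, were dim here, between 4.63 and 6.15. Col4a6 measured 5.83, 5.37 and 5.50 in wild type on chow, 4.81, 4.71 and 4.63 on high-fat diet, 5.06, 5.28 and 5.07 in knockout on chow and 4.92, 4.80, 4.80 and 5.02 on high-fat diet. It was the only chain that fell by over 1.5-fold in wild type (−0.85 ± 0.12, 1.80-fold, limma adjusted p = 7.54e-05). In knockout the change was −0.25 ± 0.11 (adjusted p = 0.102). Col4a3 fell in both genotypes, by 0.41 and 0.35 (adjusted p = 0.00173 and 0.00415). With the liver transcript level as a covariate its wild-type change was −0.29 and did not pass (adjusted p = 0.0682). Col4a5 fell by 0.28 in wild type (adjusted p = 0.0229), and changed by −0.05 in knockout. The wild-type call of Col4a5 was lost without wild-type chow array 1 or wild-type high-fat array 1 or 2, with array weights, with the liver covariate or with only the wild-type arrays in the fit. Col4a4 changed by −0.37 and −0.27 and did not pass (adjusted p = 0.0550 and 0.129). In the same arrays all 6 mesothelial markers fell in both genotypes. Of 7 endothelial and 7 smooth muscle and pericyte markers, 5 of each fell in wild type and 2 of each in knockout. Adipocyte markers (8 of 9 in wild type, 7 in knockout) and liver transcripts (6 of 9 in wild type, none in knockout) fell too. None of these genes passed for the difference of diet effects, so the unequal counts do not show a genotype difference. A link of any of these genes to the type IV chains was not tested.

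Multiplexins are proteoglycan collagens at the outer face of basement membranes, and the C-terminal fragment of Col18a1 is endostatin. Col15a1 measured 10.52, 10.61 and 10.28 in wild type on chow, 10.32, 10.36 and 10.48 on high-fat diet, 10.50, 10.47 and 10.52 in knockout on chow and 10.40, 10.20, 10.30 and 10.20 on high-fat diet. It fell by 0.22 in knockout (limma adjusted p = 0.0399) and changed by −0.08 in wild type (adjusted p = 0.508). The knockout call was lost when any knockout array other than high-fat array 1 was left out. It was also lost with the liver covariate, with the replicate number as a block and without the intensity trend of the variance. Col18a1 measured 7.75, 7.66 and 7.85 in wild type on chow, 7.89, 7.72 and 7.87 on high-fat diet, 7.87, 7.71 and 7.76 in knockout on chow and 7.80, 7.67, 7.75 and 7.52 on high-fat diet. The diets overlapped, and the changes of 0.07 and −0.10 did not pass (adjusted p = 0.582 and 0.407). The transmembrane chains Col13a1, Col17a1, Col23a1 and Col25a1 and the 2 others, Col26a1 and Col28a1, did not pass in either genotype, with changes from −0.17 to 0.16.

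The design also asks whether loss of P2X7 altered these levels or their response to diet. No collagen chain passed in limma for the genotype difference on chow, on high-fat diet or averaged over diets, nor for the difference of the diet effects (smallest adjusted p = 0.265, 0.577, 0.625 and 0.326). In these comparisons 0.133%, 0.0425%, 0.106% and 0% of all genes passed. Before adjustment 7, 1, 2 and 7 chains had p under 0.05, which is 16.7%, 2.38%, 4.76% and 16.7%, against 9.62%, 7.41%, 7.23% and 9.72% of all genes. A p that misses the threshold does not show that the genotypes had the same levels.

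Of the 7 chains with an unadjusted p under 0.05 for the difference of diet effects (knockout minus wild type), 5 were type VI chains, but none passed. The difference was 1.52 ± 0.55 for Col6a5 (limma adjusted p = 0.410), 0.67 for Col6a6 (0.472), 0.30 for Col6a4 (0.350), −0.32 for Col6a1 (0.375) and −0.28 for Col6a2 (0.474). Without wild-type chow array 1 the difference was 0.95 for Col6a5 and 0.45 for Col6a6, and without wild-type high-fat array 1 it was 0.44 for Col6a6. Col6a3 is not among the 7. The other 2 were Col4a6 at 0.60 ± 0.16 (adjusted p = 0.326) and Col20a1 at −0.37 (0.375). The 7 chains below 0.05 between genotypes on chow were Col4a5, Col4a6 and Col6a6, lower in knockout, and Col6a1, Col6a2, Col16a1 and Col20a1, higher in knockout. Liver transcripts, given above, were higher in the wild-type chow arrays than in the other groups except for 1 wild-type high-fat array that overlapped them. With the liver level as a covariate no chain passed a genotype contrast or the difference of diet effects either. That level itself separated the genotypes on chow (7.19 to 8.25 in wild type, 5.81 to 5.96 in knockout). The covariate thus takes up part of the genotype difference, and this outcome adds no information.

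Several chains that assemble in a common trimer changed by unequal amounts. For 11 pairs of such chains the log2 ratio was taken within each array, which removes any factor shared by the array, and the diets were compared by an exact two-sided permutation test with diet labels exchanged within each genotype (700 arrangements, smallest possible p = 0.00143). The ratio changed in 8 of 11 pairs after adjustment over the 11. Both chains lay above the median gene in 6 pairs, and all 6 of these passed. Some of these 6 pairs share a chain (Col5a1 or Col6a1), so they are not independent. In the other 5 at least 1 chain lay at or below it, where differences are compressed, so a shift of their ratio, past the threshold in 2, is not read as unequal change. A ratio shows unequal change of 2 probe sets and does not tell which chain moved or give the protein ratio.

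The ratio of Col6a3 to Col6a1 shifted by 0.68, from −1.30 to −0.998 in the chow arrays to −0.52 to −0.35 in the high-fat arrays, with no overlap. The ratio of Col1a1 to Col1a2 was −0.39 to −0.14 in all 6 chow arrays and 0.01 to 0.15 in all 7 high-fat arrays, a shift of 0.38.

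The ratio of Col5a1 to Col5a2 shifted by −0.51 and that of Col5a1 to Col5a3 by 0.38. Both rest on the brighter Col5a1 probe set, while the dimmer Col5a1 probe set changed by −0.03 in wild type and −0.06 in knockout. Col6a1 against Col6a2 shifted by −0.13. These 5 pairs reached the smallest p the exact test allows, 0.00143 (adjusted p = 0.00262), and Col4a1 against Col4a2 shifted by −0.07 (exact p adjusted to 0.0196). Among pairs with a dim chain, Col8a1 against Col8a2 shifted by 1.43, beside the rise of Col8a1 by 1.36 and 1.06, and Col4a5 against Col4a6 by 0.38 (exact p adjusted to 0.00262 and 0.00898). Col4a3 against Col4a4 (−0.06), Col9a1 against Col9a2 (0.05) and Col11a1 against Col11a2 (0.05) did not pass (each adjusted to 0.534 in the exact test). Within wild type alone the smallest possible p is 0.1 and within knockout 0.0286. The wild-type and knockout shifts had the same sign in all pairs except Col11a1 against Col11a2.

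**Figure D3:**
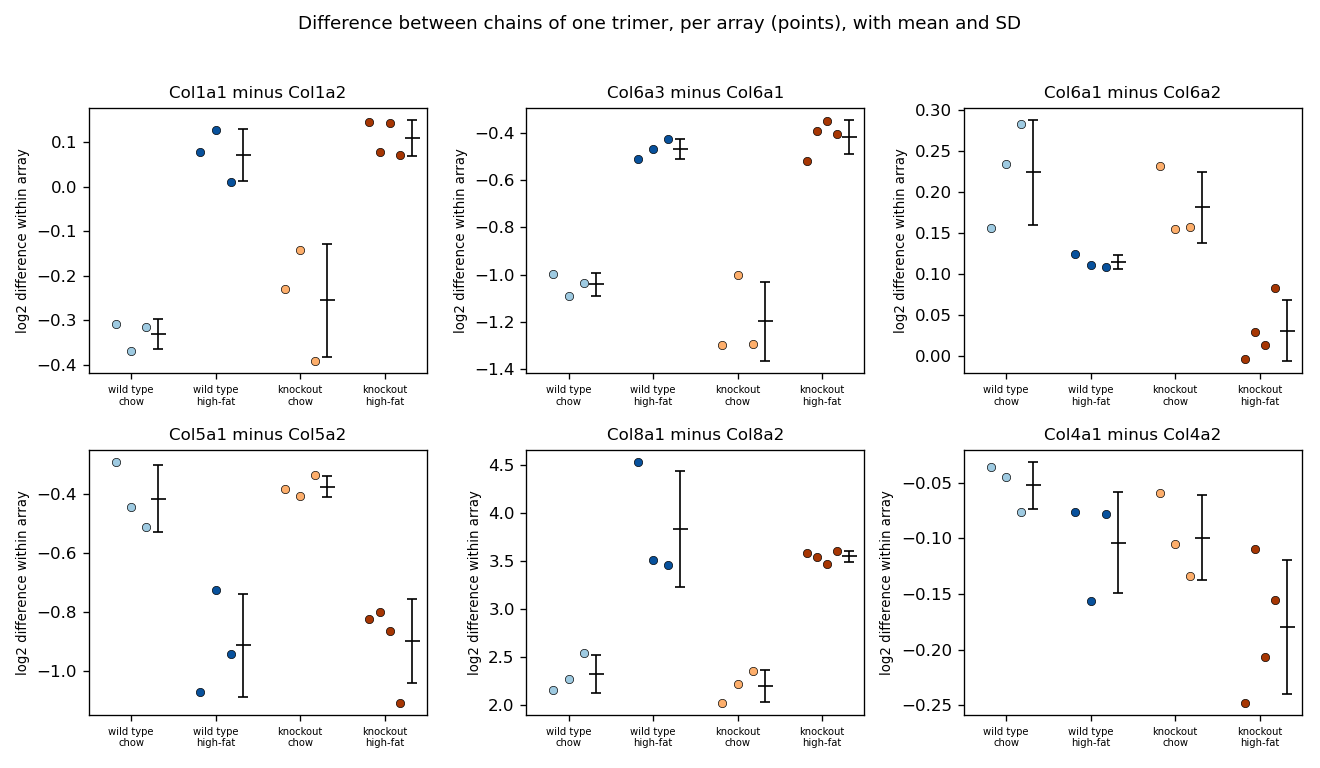
Log2 ratio of chain pairs of a common trimer in each array, by group, with points for arrays and bars for the mean ± SD, each panel with its own vertical scale. The high-fat points of Col1a1 to Col1a2, Col6a3 to Col6a1 and Col8a1 to Col8a2 lie above all chow points, and those of Col5a1 to Col5a2 below them.

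Several collagen genes lie next to each other in RefSeq gene order, and neighbours changed alike in some places and not in others. On chromosome 1, Col3a1 and Col5a2 changed by 0.85 and 0.80 in wild type and 0.75 and 0.66 in knockout. Col6a2 and Col6a1 on chromosome 10 changed by 0.62 and 0.51, and by 0.34 and 0.19. On chromosome 9 the neighbours Col6a6, Col6a5 and Col6a4 changed by −0.58, 0.29 and −0.04 in wild type and by 0.09, 1.81 and 0.26 in knockout. On chromosome X, Col4a6 and Col4a5 changed by −0.85 and −0.28 in wild type and by −0.25 and −0.05 in knockout.

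The genes that modify, trim and cross-link collagen were read from a list of 33, of which 29 were measured. In wild type 14 rose and 5 fell, with a median change of 0.24, and in knockout 9 rose and 5 fell, with a median of 0.08. No gene of the list passed for the difference of diet effects, so the unequal counts do not show a genotype difference. Over all genes 17.7% rose and 18.1% fell in wild type and 14.5% rose and 19.7% fell in knockout, so the fallen count is near the background. Colgalt1, which adds galactose to hydroxylysine, measured 9.63, 9.45 and 9.68 in wild type on chow and 10.70, 10.35 and 10.57 on high-fat diet, and rose by 0.95 ± 0.09 (limma adjusted p = 1.62e-06) and, in knockout, by 0.59 ± 0.08 (adjusted p = 7.78e-05). Plod2, the lysyl hydroxylase of the telopeptides that sets the kind of cross-link, rose by 1.11 ± 0.14 and 0.95 ± 0.13 (adjusted p = 3.09e-05 and 8.36e-05).

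Several of those acting outside the cell rose. Pcolce, an enhancer of the procollagen C-proteinase, rose by 0.83 ± 0.09 and 0.82 ± 0.09 (limma adjusted p = 1.10e-05 and 8.70e-06), and Adamts14, a procollagen N-proteinase, by 1.17 ± 0.12 and 0.78 ± 0.12. The C-proteinase Bmp1 rose by 0.44 and 0.38 and the cross-linking oxidase Lox by 0.56 and 0.87. Others, inside and outside the cell, fell. The galactosyltransferase Colgalt2 fell by 0.53 and 0.46, and Pxdn, an extracellular peroxidase that cross-links type IV collagen, by 0.65 and 0.72. Mia3, needed for export of procollagen from the endoplasmic reticulum, fell by 0.21 and 0.23. Adamts14 and Colgalt2 lay at or below the median gene, where differences are compressed.

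Of 13 measured collagen receptors and uptake genes, 5 rose and 2 fell in wild type and 5 rose and 3 fell in knockout, with medians of 0.11 and 0.05. The fallen counts are near the 18.1% and 19.7% of all genes that fell, while 17.7% and 14.5% of all genes rose. Mrc2, the endocytic receptor for collagen fragments, lay at 6.92 to 7.60 in all chow arrays and at 9.33 to 9.75 in all high-fat arrays, and rose by 2.34 ± 0.13 and 2.06 ± 0.12 (limma adjusted p = 5.65e-08 and 1.35e-07). Lair1, an inhibitory collagen receptor of leukocytes, rose by 2.92 ± 0.18 and 2.30 ± 0.17, beside the rise of all 10 macrophage markers. Adgrg6, an adhesion receptor that binds type IV collagen, rose by 1.22 ± 0.17 and 0.83 ± 0.16.

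Antxr2, a receptor that takes up type VI collagen, rose by 0.25 in wild type (limma adjusted p = 0.0166) and changed by 0.05 in knockout (adjusted p = 0.584). Cspg4, a type VI collagen-binding proteoglycan of pericytes, rose by 0.47 in knockout (limma adjusted p = 0.00600). In wild type it changed by −0.01 (adjusted p = 0.956). Neither Antxr2 nor Cspg4 passed for the difference of diet effects. The integrin chain Itga1 fell by 0.49 and 0.39 (adjusted p = 0.0215 and 0.0484), and the receptor kinase Ddr1 by 0.44 and 0.38 (adjusted p = 0.0260 and 0.0395). These calls are not stable: no receptor of the list fell in wild type with the liver covariate or without wild-type chow array 3, and none fell in knockout without knockout chow array 2 or 3 or knockout high-fat array 2 or 4.

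Of 19 measured proteins that coat or link fibrils, 4 rose and 5 fell in each genotype, with medians of −0.02 and 0.01, which is near the shares of all genes that rose (17.7% and 14.5%) and fell (18.1% and 19.7%). Lum, a keratan sulphate proteoglycan that binds fibrils, rose by 1.47 ± 0.13 and 1.70 ± 0.12 (limma adjusted p = 1.03e-06 and 2.79e-07). Postn, a matricellular protein that promotes cross-linking, rose by 1.40 ± 0.11 and 1.07 ± 0.11. Comp, which binds fibrillar collagens, rose by 1.09 ± 0.25 and 2.10 ± 0.23. Comp was dim, with a mean at or below the median gene, and measured 4.89, 5.49 and 6.15 in wild type on high-fat diet. Bgn, a leucine-rich proteoglycan, rose by 0.57 and 0.37.

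Podn, another leucine-rich proteoglycan, fell by 1.60 in wild type and 1.21 in knockout (limma adjusted p = 5.65e-08 and 2.81e-07), from 10.89 to 11.17 over the chow arrays to 9.26 to 9.81 over the high-fat arrays. Fmod, a relative of Lum that shares its fibril-binding role, fell by 1.49 and 0.86. Rises of Lum thus stood beside falls of Fmod and Podn in the same arrays.

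**Figure D4:**
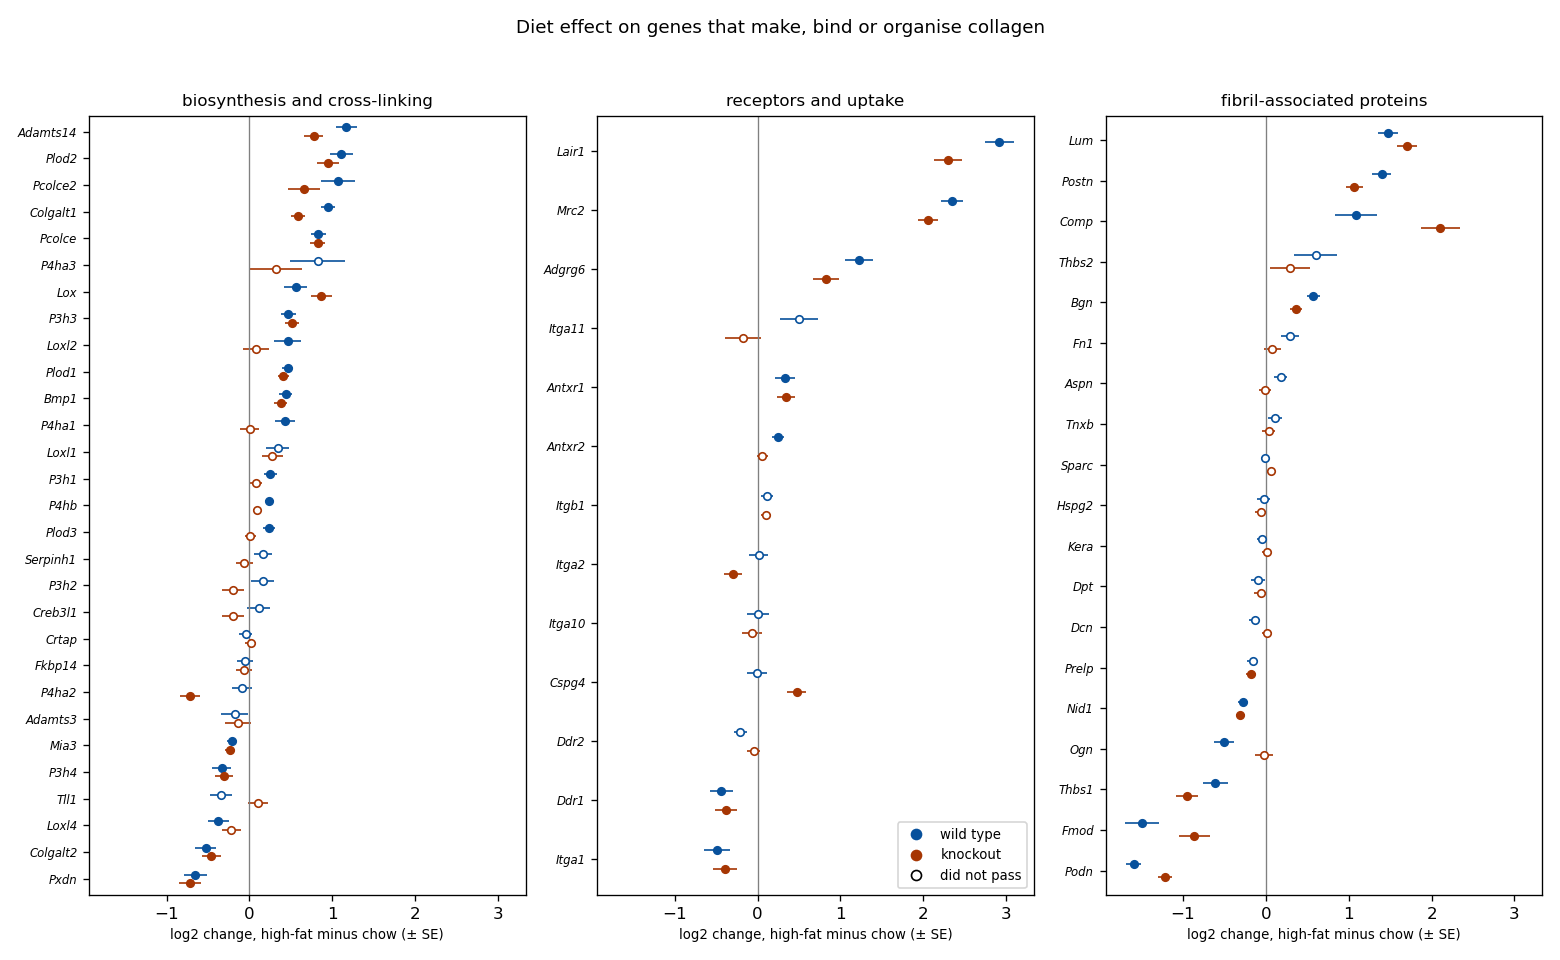
Change with high-fat diet (log2, high-fat minus chow) of the measured genes of the 3 collagen pathway lists in wild type and knockout. Points give the change and bars ± 1 SE of the limma fit, filled where it passed the test and open where it did not. In wild type Lair1 and Mrc2 lie farthest to the right and Podn and Fmod farthest to the left. In knockout Lair1 and Comp lie farthest to the right and Podn and Thbs1 farthest to the left.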

How the data were processed

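RNA of epididymal fat was measured on 13 arrays. The deposited values are log2 expression after RMA, run by the authors per the submitters' processing notes. Neither the version of RMA nor a genome build is given in the sources used here. Of 35556 probe sets, 21218 name 1 gene in the platform annotation, 1881 several and 12457 none. The highest-mean probe set stood for each of 18820 genes, with no filter on dim values. The 4 group means were fitted with limma 3.58.1 (lmFit and eBayes with an intensity trend) in R 4.3.3, and 6 contrasts were adjusted by Benjamini-Hochberg over all genes. Chain ratios were tested by exact permutation. The code was tested on simulated data.

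The collagen genes, pathway lists and marker lists were chosen with earlier results of these data known. Of 140 list entries, 13 were not measured by a probe set of 1 gene. Every value was printed for the main fibrillar, type IV, type VI and multiplexin chains and for chains called at 1.5-fold or more, and from each pathway list up to 4 genes with the smallest p in each genotype, with others named after their values were seen. Alternatives were other scaling, variance settings, array weights, probe set averaging, a filter on dim genes, fits of the compared groups only, the replicate number as a block, the liver transcript level as a covariate and each array left out. Leaving out wild-type chow array 1 and wild-type high-fat array 2 together was added after seeing the data. Each had the highest liver transcript level of its group (8.25 and 7.31). The wild-type chow arrays that stayed in were also rich in these transcripts (7.49 and 7.19), so this fit does not remove the liver signal.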

Additional observations from a re-analysis of the deposited data

Results flagged for a closer look

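Among the 42 chains, 3 had an array in the knockout high-fat group of 4 whose gap to its nearest neighbour was a large part of the group's whole range. Chance alone marks about 1 in 20 groups this way where no values are tied. Col17a1, a transmembrane chain of epithelial junctions, measured 4.49 in knockout high-fat array 2 and 4.55 in each of the others. The others are identical, so any different value in that array would have been marked, and that chance rate does not apply to Col17a1. Col3a1 measured 10.52 in array 4 and 10.42 to 10.43 in the others. Col6a1 measured 10.59 in array 1 and 10.44 to 10.46 in the others. The change with diet in knockout was 0.75 for Col3a1, 0.19 for Col6a1 (limma adjusted p = 0.0525) and −0.06 for Col17a1.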

How the results depend on the processing

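No called collagen value changed sign under any alternative. Of the chains called, 11 of 19 in wild type and 11 of 14 in knockout passed in every fit run. Against 4 fallen in wild type, 2 were called with array weights and 2 when the fit held only the compared groups. The count was 1 with the liver level as covariate and 2 without both wild-type chow array 1 and wild-type high-fat array 2. Against 4 in knockout, 7 were called with array weights and 2 with the replicate block. Testing only genes above the median gene left 1 fallen chain in wild type and 2 in knockout because it removes the dim chains, and it lost no call among the 19 chains kept. The replicate block also left 0 fallen receptors in knockout, against 3. It moved no other count of collagen chains or pathway genes by over 1.5 times. Replicate numbers showed no clear pairing of the arrays. Over 18 same-numbered pairs, deviations from the group means correlated between −0.30 and 0.22, with 6 over 0.1. Of 13 arrays, 4 correlated best with their own number. With so few arrays per group this check cannot exclude pairing. Fallen biosynthesis genes in wild type (5) came to 3 above the median gene, where 2 of the 5 are not tested, and 1 with the liver covariate. Receptors risen in wild type (5) came to 3 with only the groups compared and 3 with the liver covariate, and those fallen (2) to 1 and 0. With 1 genotype alone, 0 chain pairs passed, where the smallest possible p is 0.1 in wild type and 0.0286 in knockout. No pair could pass in wild type, and in knockout even pairs at that smallest p missed the threshold after adjustment. These counts therefore do not show that the shifts were absent in either genotype.

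With each array left out in turn, 13 to 15 chains rose and 2 to 5 fell in wild type, and 10 to 11 rose and 1 to 5 fell in knockout. The fallen count was 2 without wild-type chow array 1 or high-fat array 1, and 1 without knockout chow array 2 or 3 or high-fat array 2 or 3. No chain passed a genotype or interaction contrast (0 to 0). Biosynthesis genes gave 10 to 15 risen and 3 to 5 fallen in wild type and 8 to 11 and 4 to 5 in knockout. Receptors gave 3 to 6 and 0 to 3 in wild type and 4 to 5 and 0 to 3 in knockout. Fibril-associated proteins gave 4 to 7 and 5 to 6 in wild type and 4 to 4 and 4 to 5 in knockout, and 7 to 8 chain pairs passed. Centring each array shifted the median change of all genes to −0.09 in both genotypes. The number of arrays, and signals near background for the 23 dim chains, limit what can be called.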
